A study of Mus musculus with 90 samples.

Results

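The genes described here are the cytochromes P450 of families 1 to 3: protein-coding mouse genes whose symbol starts with Cyp1, Cyp2 or Cyp3 followed directly by a letter. The rule used names and no measured value. It found 60 genes in 17 subfamilies among the 24475 genes of the count tables. Cytochromes P450 are heme enzymes of the endoplasmic reticulum that insert oxygen into drugs, toxicants, steroids, bile acids and fatty acids, with electrons passed on by the reductase Por and by cytochrome b5. In liver, hepatocytes hold most of them, often more in those around the central vein than in those near the portal tract. Several are transcribed under the nuclear receptors CAR (Nr1i3) and PXR (Nr1i2) or the aryl hydrocarbon receptor (Ahr), and others differ between male and female mice through the pattern of growth hormone.

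Liver polyA RNA was sequenced from 90 mouse samples in 9 groups of 10. The animals of experiment 1 were given a short hairpin RNA carried by AAV8, a liver-directed viral vector. The groups were Control and knockdown (KD) of Gcgr (the glucagon receptor), of Gnas (the stimulatory G protein), of PKA (the cAMP-dependent kinase) and of Epac2 (a cAMP sensor encoded by Rapgef4). In experiment 2 the groups were Control AAV + Control mAb, Control AAV + Gcgr mAb (an antibody that blocks the glucagon receptor), Prkar1a KD + Control mAb and Prkar1a KD + Gcgr mAb; Prkar1a encodes a regulatory subunit that holds PKA inactive. The comparisons ask how loss or gain of signalling below the glucagon receptor changed the liver transcriptome. All groups share the AAV8 vector. The sources used here do not give the promoter that drives the hairpins, nor the age, sex, strain and feeding state of the mice. All libraries were whole liver, so in every result fewer cells of a type and less RNA per cell cannot be told apart. The labels number the samples without saying that each is a separate mouse, so a p-value here measures only sample-to-sample spread, which may be technical.

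The members lie mostly in tandem clusters, and several are near copies of a neighbour, which limits how surely reads can be given to one gene. On GRCm38, 15 Cyp2c genes lie on chromosome 19, 9 Cyp3a genes on chromosome 5, 8 Cyp2d genes on chromosome 15, 7 Cyp2j genes on chromosome 4, and 5 Cyp2b and 4 Cyp2a genes on chromosome 7. In coding sequence, 30 of the 60 members were more than 90% identical to another member. Cyp3a41a and Cyp3a41b were 99.87% identical, Cyp2a4 and Cyp2a5 98.45%, Cyp3a25 and Cyp3a59 97.49%, Cyp2c37 and Cyp2c50 96.13%, and Cyp2c50 and Cyp2c54 95.25%. Cyp2a4 and Cyp2a5, a pair whose levels moved apart with Prkar1a KD (below), differed at 23 of 1485 coding positions. Of the 50-base windows of Cyp2a4, 38.1% also occur in Cyp2a5. Coding positions 596 to 655 of both, counted from the start codon, are shown because 4 differing bases, in capitals, fall within 60 bases there:

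Cyp2a4: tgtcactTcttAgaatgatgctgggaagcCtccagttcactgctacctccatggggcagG

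Cyp2a5: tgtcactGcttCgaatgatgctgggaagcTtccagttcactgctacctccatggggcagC

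With Prkar1a KD and control mAb the same pair went in opposite directions, while with Gnas KD both genes fell. The fall of Cyp2a5 with Prkar1a KD was lost under some alternatives (below). The 250 bases upstream of the pair are shown for this reason. These windows lie at chr7:26306942-26307191 (Cyp2a4) and chr7:26835089-26835338 (Cyp2a5) on the plus strand of GRCm38.p6 (RefSeq). They are 97.6% identical, and capitals mark the bases that differ, including a shift of 1 base at the ends:

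Cyp2a4: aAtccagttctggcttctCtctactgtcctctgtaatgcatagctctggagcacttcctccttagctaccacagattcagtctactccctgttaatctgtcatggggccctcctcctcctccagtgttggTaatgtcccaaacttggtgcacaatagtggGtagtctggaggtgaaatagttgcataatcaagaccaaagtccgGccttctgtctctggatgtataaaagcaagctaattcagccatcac

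Cyp2a5: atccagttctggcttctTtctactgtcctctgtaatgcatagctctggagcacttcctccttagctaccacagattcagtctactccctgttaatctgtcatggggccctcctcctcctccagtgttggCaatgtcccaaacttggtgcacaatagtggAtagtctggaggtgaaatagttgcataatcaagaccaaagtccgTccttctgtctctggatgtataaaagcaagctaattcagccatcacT

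Cyp3a11, which had a large fall with Prkar1a KD, is shown as a member with a nuclear receptor hexamer. Its upstream 250 bases lie on the minus strand at chr5:145879855-145880104. Capitals mark AGGTCA, the hexamer bound by many nuclear receptors, which occurs 1 time:

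Cyp3a11: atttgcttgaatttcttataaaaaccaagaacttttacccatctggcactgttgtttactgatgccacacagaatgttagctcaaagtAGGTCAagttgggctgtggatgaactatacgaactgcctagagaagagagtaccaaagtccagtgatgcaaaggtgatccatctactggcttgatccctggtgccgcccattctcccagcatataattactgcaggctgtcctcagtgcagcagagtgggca

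Upstream windows were at hand for 53 members and were searched on both strands. Each follows 1 transcript start; for 30 members this is the outer start of the listed gene, and for 4 (Cyp1a1, Cyp2j6, Cyp2j9 and Cyp3a13) the window lies inside the listed gene. AGGTCA was present in 15 of 53 (28.3%) against 13.8% of all 27025 such windows, and TATAAA in 25 (47.2%) against 13%. Several member windows are near copies, such as those of Cyp2b9 and Cyp2b13 (99.2% identical) or Cyp3a25 and Cyp3a59 (94.8%). The member counts are therefore not of independent windows. The full cAMP response element TGACGTCA was present in 0 members against 1.62% of all windows. Its core TGACG was present in 2 members (3.77%, Cyp2j5 and Cyp2j9) against 17.9%, and the dioxin-response core GCGTG in 9 (17%, Cyp1a1 and Cyp2b10 among them) against 28.2%; the full element holds the core TGACG. These are matches of letters in one window and say nothing about binding.

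Per length, the enzyme that handles ethanol and acetaminophen dominated. In the experiment 1 Control group, Cyp2e1 (chr7:140763819-140774990) had a mean of 3684 RPKM (counts per kilobase of exon, scaled to library size), 50.2% of the summed RPKM of the members, and in Control AAV + Control mAb 45.7%. Next in experiment 1 came Cyp2d26 with 546 RPKM, Cyp2d10 with 421, Cyp2f2, which activates naphthalene, with 416, Cyp2d9, a testosterone hydroxylase, with 391 and Cyp2j5, an arachidonic acid epoxygenase, with 219. Neighbours in that order from Cyp2d10 to Cyp2d9 lay within their spread between libraries. A mean of at least 1 CPM (1 count in 1000000 of the scaled library size) was reached by 32 to 39 members in a group. No count in any library of a group was found for 4 to 9 members. With a filter on low counts, 43 members were tested in experiment 1 and 39 in experiment 2.

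Library totals were 20813044 to 33709476 counts in experiment 1 and 8870311 to 19481392 in experiment 2. Mean CPM of each target fell in its own group: Gcgr from 171 to 45.7, Gnas from 361 to 51.9, Prkaca and Prkacb (the PKA catalytic subunits) from 95.5 to 11.5 and from 40.2 to 9.6, Rapgef4 from 91 to 9.48, and Prkar1a from 123.2 to 32.1 with control antibody. Targets were also called outside their own group. Of the 6, own targets included, 2 fell with Gcgr KD and 4 with PKA KD. With Prkar1a KD and control mAb 3 fell and 2 rose, with Rapgef4 at 112 to 191 CPM against 55.3 to 98.6. Prkar1a lay at 98.3 to 119 CPM in PKA KD against 123 to 133 in Control. Each of the 6 hepatocyte markers (Alb, Apoa1, Ttr, Serpina1a, Fgb, Cps1) was detected in every group. The 4 libraries least correlated with their own group, by median r, were replicates 3 and 5 of PKA KD, replicate 2 of Control AAV + Gcgr mAb and replicate 10 of Control AAV + Control mAb. Calls were repeated without each of them. Of the Y-linked genes, Ddx3y lay at 24.5 to 94.3 CPM over the 90 libraries. The X-linked RNA Xist was at most 0.889 CPM. All 90 libraries thus held RNA of a Y-linked gene, while the sources used here do not state the sex.

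Together the 60 genes held a mean of 1.59% ± 0.19 of all counts (SD, n = 10) in Control, and the share was near this in Gcgr KD (1.61% ± 0.22), Gnas KD (1.67% ± 0.21) and Epac2 KD (1.54% ± 0.24). In PKA KD it was 2.30% ± 0.61, with libraries from 1.14% to 3.02%. In experiment 2 it was 1.53% ± 0.16 in Control AAV + Control mAb, 1.89% ± 0.31 with Gcgr mAb, 0.694% ± 0.096 in Prkar1a KD + Control mAb and 0.738% ± 0.077 in Prkar1a KD + Gcgr mAb. The Prkar1a KD libraries reached at most 0.86%, below every Control AAV library. Cyp2e1 made up 43.3% of the members' counts in Control AAV + Control mAb and 26.4% in Prkar1a KD + Control mAb. These shares are descriptions and were not tested.

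**Figure D1:**
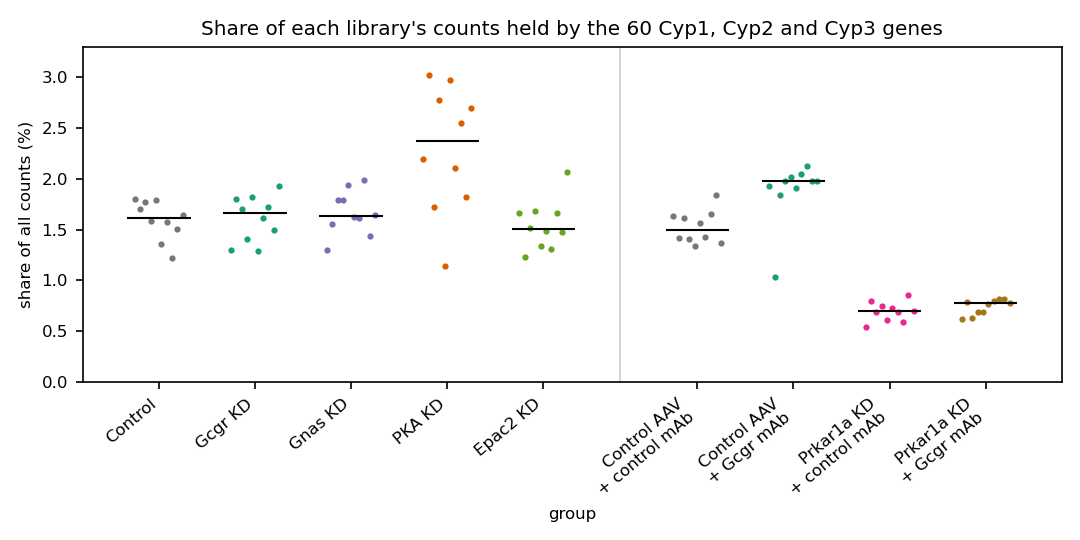
Percent of each library's counts held by the 60 genes, by group, with 1 point per library and a bar at the median. The Prkar1a KD libraries lie between 0.543% and 0.86%, and 1 library of Control AAV + Gcgr mAb, at 1.03%, sits apart from its group.

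With Prkar1a KD, which releases PKA, most of these genes fell. Against Control AAV, both with control mAb, 30 of 39 tested members fell, 3 rose and 6 did not pass (edgeR quasi-likelihood test, adjusted p under 0.05 over all genes). Of all 12847 genes tested, 56.2% were called, 26.9% as lower and 29.3% as higher. The median log2 fold change was -0.95 over the tested members and 0.02 over all genes. In 18 members the 2 groups did not overlap, against 15.1% of all genes. Of the subfamilies, 9 of 12 tested Cyp2c, 5 of 5 Cyp2d, 3 of 4 Cyp3a, 3 of 4 Cyp2a and 2 of 2 Cyp1a genes fell. DESeq2 gave the same 33 calls.

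Cyp2e1 lay at 5644 to 8939 CPM (median 6874) in Control AAV + Control mAb and at 1442 to 2283 (median 1715) in Prkar1a KD + Control mAb. The groups did not overlap, and the log2 fold change was -2.0 ± 0.17 (SE, adjusted p = 3.9e-13, edgeR). Cyp1a2, the hepatic aromatic amine oxidase, lay at 164 to 326 CPM (median 214) and at 20.4 to 70.5 (median 49.3), a log2 fold change of -2.22 ± 0.24 with no overlap. Its neighbour Cyp1a1, low in all groups, had -1.76 ± 0.34.

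The Cyp3a genes, drug oxidases of broad range, did not move as one. Cyp3a11, the main PXR-responsive member, lay at 390 to 1428 CPM (median 856) in controls and at 5.48 to 84.7 (median 28.7) with Prkar1a KD. Every Prkar1a KD library lay below every control library, and the log2 fold change was -4.76 ± 0.54 (adjusted p = 1.5e-09, edgeR). Cyp3a59 fell by 2.81 ± 0.23 and its near copy Cyp3a25 by 1.42 ± 0.16 on the log2 scale, both without overlap. Cyp3a13 went the other way: it lay at 108 to 156 CPM (median 130) in controls and 141 to 259 (median 175) with Prkar1a KD, a log2 fold change of 0.47 ± 0.09 (adjusted p = 1.9e-05) with overlapping groups.

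In the Cyp2c cluster, whose products epoxidize and hydroxylate fatty acids, drugs and bile acids, 3 adjacent genes had the largest falls of the subfamily. Cyp2c54 lay at 12.7 to 273 CPM (median 82.1) in controls, a wide spread, and at 2.69 to 10.8 (median 3.5) with Prkar1a KD, a log2 fold change of -4.42 ± 0.46 (adjusted p = 2e-10, edgeR). Cyp2c50 went from a median of 598 to 48.5 CPM (-3.53 ± 0.30) and Cyp2c37 from 195 to 26.6 (-2.96 ± 0.30), each without overlap. They are near copies of each other (above), so their counts may not be independent. The next gene along the chromosome, Cyp2c70, which makes muricholic acids in mice, had medians of 171 and 184 CPM and a log2 fold change of -0.04 ± 0.19 (adjusted p = 0.87). Cyp2c68 rose by 0.43 ± 0.11, while its closest copy Cyp2c67 fell by 1.29 ± 0.10.

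**Figure D2:**
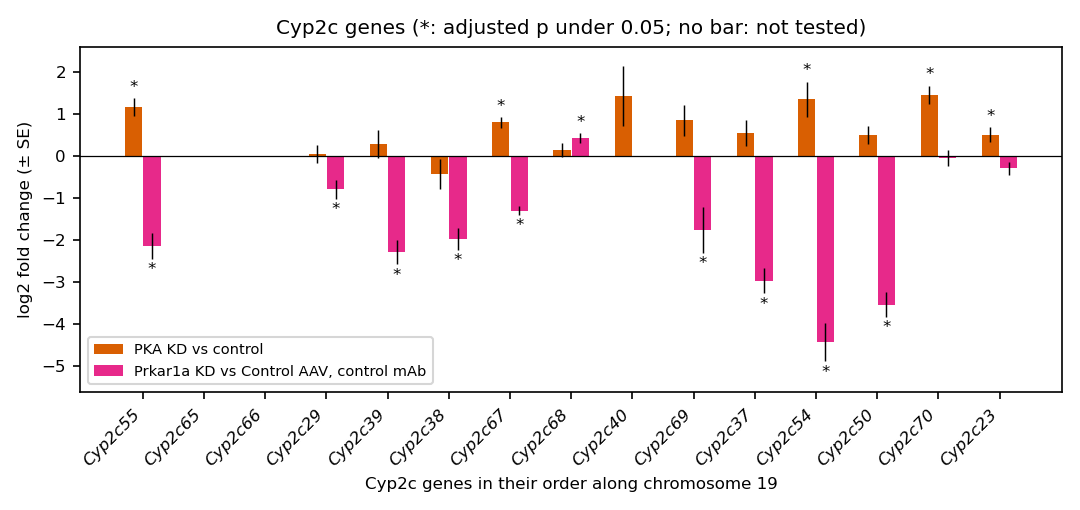
Log2 fold change (bars, with SE) of the Cyp2c genes in their order along chromosome 19, for PKA KD against Control (orange) and Prkar1a KD against Control AAV, both with control mAb (pink); asterisks mark adjusted p under 0.05. The deepest pink bars are those of Cyp2c37, Cyp2c54 and Cyp2c50, next to Cyp2c70 near 0.

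Cyp2a4 and Cyp2a5, a steroid hydroxylase and coumarin hydroxylase of near-identical sequence (above), separated. Cyp2a4 lay at 0.6 to 31.7 CPM (median 10.7) in controls and at 25.4 to 904 (median 333) with Prkar1a KD, and the ranges overlapped between 25.4 and 31.7 CPM. Its log2 fold change was 4.68 ± 0.77 (adjusted p = 3.1e-06, edgeR), the largest rise among the members. Cyp2a5 lay at 344 to 940 CPM (median 694) and 129 to 797 (median 326), with a log2 fold change of -0.74 ± 0.32 (adjusted p = 0.047). This call was lost without replicate 10 of the controls (-0.66) and without the filter on low counts (-0.73). Reads that fit both genes would move counts between them, and their part in these values was not tested. Cyp2a12, a steroid and bile acid hydroxylase, fell by 0.74 ± 0.10 without overlap, and its copy Cyp2a22 by 1.34 ± 0.49.

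Cyp2b10, the classic CAR-responsive gene, was nearly off without inducer: its 10 control libraries summed to 110 counts and those of Prkar1a KD to 2, with 0 counts in 2 and 8 libraries. Scaled to library size, the second sum was 60.9-fold lower (95% exact interval 16.5 to 509, counting error only). Cyp2b13 fell by 3.10 ± 0.88 on the log2 scale, from a mean of 4.26 to 0.49 CPM. Among the rest, Cyp2d40 fell by 2.35 ± 0.21, Cyp2d9 by 0.95 ± 0.25, Cyp2f2 by 0.93 ± 0.11, Cyp2j5 by 0.84 ± 0.11, Cyp2r1 (a vitamin D hydroxylase) by 0.69 ± 0.13 and Cyp2u1 (a fatty acid hydroxylase) by 0.57 ± 0.22, a call lost with limma-voom (-0.52). Not called were Cyp1b1, Cyp2b9, Cyp2c23, Cyp2c70, Cyp2g1 and Cyp2j9; of these Cyp2b9 had -1.53 ± 0.81.

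All 8 members listed as pericentral fell, Cyp2e1, Cyp1a2, Cyp2a5, Cyp2c29, Cyp2c37, Cyp2c50, Cyp2c54 and Cyp3a11. So did Cyp2f2, which is known for periportal expression, and 30 of all 39 tested members. Genes outside the family changed as well, where 26.9% of all genes were called as lower and 29.3% as higher. Of 12 other pericentral genes 5 fell and 2 rose, near the 56.2% of all genes called, with a median log2 fold change of -0.04. The falls included Glul (-2.89 ± 0.23) and Rgn (-1.70 ± 0.14). Of 12 periportal genes 10 rose and 1 fell, with Pck1 at 2.55 ± 0.19, Gls2 at 2.04 ± 0.10 and Apoa4 at -3.58 ± 0.53. The 6 hepatocyte markers summed to 70547 to 81320 CPM in controls and 30552 to 43654 with Prkar1a KD; Alb, Apoa1, Ttr and Fgb fell, and Cps1 and Serpina1a rose. The 6 macrophage markers summed to 74.9 to 161 and 69.9 to 279 CPM. Of these macrophage markers 1 rose, and 2 of 6 endothelial, 2 of 6 stellate and fibroblast and 1 of 5 cholangiocyte markers fell. Of 2 tested neutrophil markers 1 rose, and of 18 acute-phase genes 9 fell and 5 rose. The part of these shifts in the falls of the members was not tested.

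**Figure D3:**
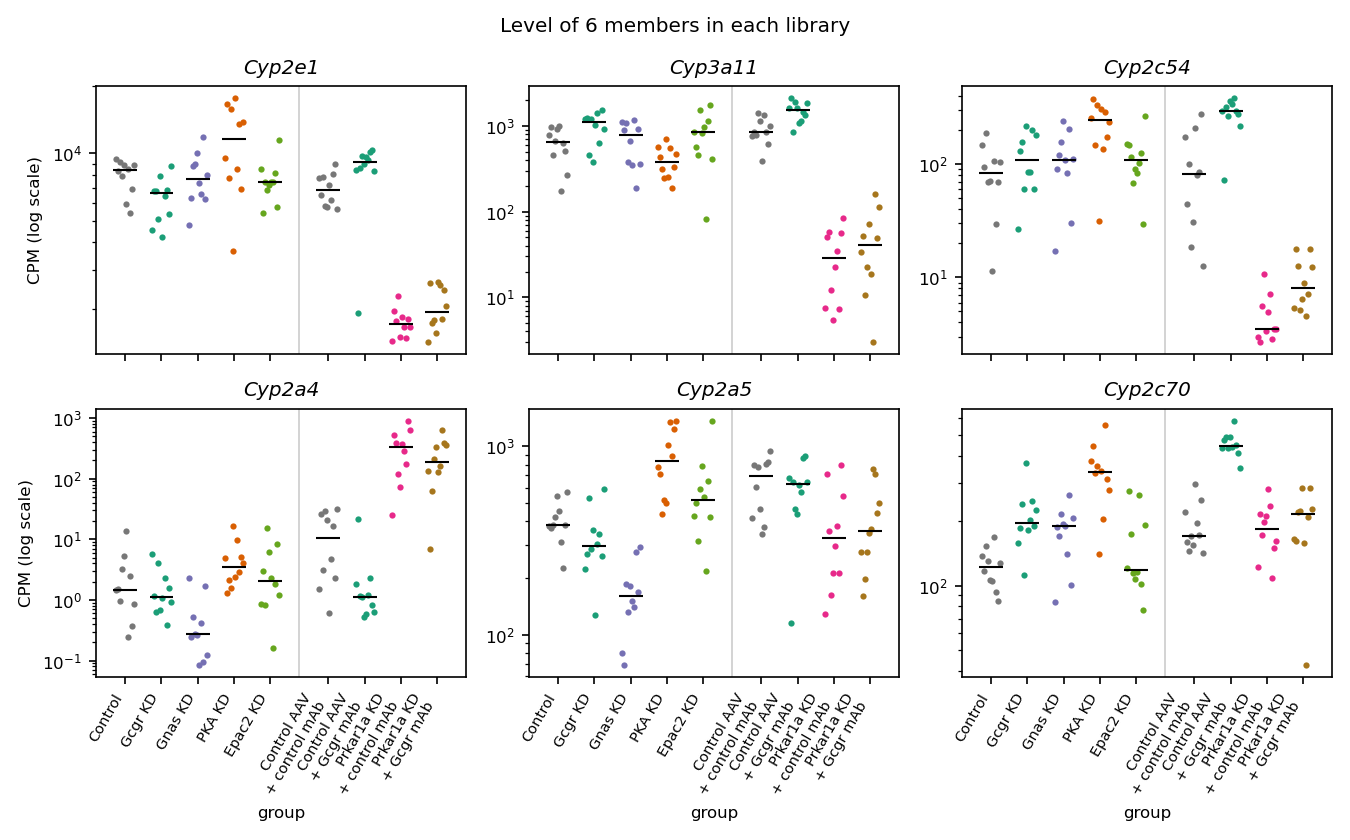
CPM of 6 members in each library on a log scale, with 1 point per library and a bar at the median. Cyp2e1, Cyp3a11 and Cyp2c54 lie lower in both Prkar1a KD groups than in Control AAV + Control mAb, Cyp2a4 lies higher, and Cyp2c70 is highest in Control AAV + Gcgr mAb among the groups of experiment 2.

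The same comparison was made with the receptor antibody present. Between Prkar1a KD with Gcgr mAb and Control AAV with Gcgr mAb, 29 of 39 members fell and 2 rose, against 53.1% of all genes called (26.6% and 26.5%), and 9 members did not overlap, against 10.4%. Of 18 acute-phase genes 11 fell and 4 rose. Markers of other cells moved with them: 5 of 6 endothelial, 4 of 6 macrophage, 4 of 6 stellate and fibroblast and 2 of 5 cholangiocyte markers fell, and 9 of 12 periportal genes rose. The endothelial list summed to 58.3 to 118 CPM against 102 to 174, the macrophage list to 57.5 to 186 against 76.6 to 327, and the stellate list to 215 to 325 against 239 to 840; their part was not tested. Prkar1a KD + Gcgr mAb against Control AAV + Control mAb gave 27 lower and 3 higher, against 50.2% (24.2% and 26%), with 14 members without overlap, against 10.7%. Cyp3a11 fell by 4.81 ± 0.54 and 4.10 ± 0.52 in these comparisons and Cyp2e1 by 2.05 ± 0.17 and 1.75 ± 0.17. Adding Gcgr mAb on top of Prkar1a KD changed 0 of 39 members and 0% of all genes by edgeR, with 5 members and 846 genes at an unadjusted p under 0.05 and 0 members called by DESeq2 or limma-voom.

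Blocking the receptor in Control AAV livers raised 3 members and lowered 1, against 8.19% of all genes called (2.92% as higher, 5.27% as lower). In 1 member the groups did not overlap, against 0.467% of all genes. Cyp2c70 lay at 141 to 298 CPM (median 171) with control mAb and at 351 to 583 (median 447) with Gcgr mAb. The groups did not overlap, and the log2 fold change was 1.26 ± 0.20 (adjusted p = 2.3e-05, edgeR). Cyp2c54 rose by 1.46 ± 0.39 and Cyp2c23, an epoxygenase, by 0.50 ± 0.16; the call of Cyp2c23 was lost without replicate 2 of the Gcgr mAb group (0.45) or replicate 10 of the controls (0.46), without the filter (0.50) and with the male-biased covariate (0.36). Cyp2a22 fell from a median of 40.1 to 5.06 CPM (-2.27 ± 0.51, adjusted p = 0.0034). Cyp3a11 had medians of 856 and 1543 CPM without passing (0.71 ± 0.46, adjusted p = 0.36). Without replicate 2 of the Gcgr mAb group 7 members passed, 5 higher and 2 lower, and 8 with the male-biased covariate. Of 12 periportal genes 6 fell and 1 rose here, and 1 endothelial and 1 macrophage marker rose; their part was not tested.

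The effect of Gcgr mAb differed with Prkar1a KD in 2 members by the interaction test, 1 in each direction, against 4.08% of all genes (2.74% higher, 1.34% lower). Cyp2c70 lay at 109 to 281 CPM (median 184) in Prkar1a KD + Control mAb and 43 to 284 (median 215) in Prkar1a KD + Gcgr mAb, and the interaction was -1.17 ± 0.27 (adjusted p = 0.010, edgeR). For Cyp2a22 it was 2.47 ± 0.70 (adjusted p = 0.038), and this call was lost with the replicate number as a block (adjusted p = 0.070) and without the filter on low counts (0.058).

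With PKA KD, 16 of 43 tested members rose and 4 fell, against 17.7% and 14.8% of all 13574 genes tested (32.4% in either direction). The median log2 fold change was 0.28 over the tested members and 0.01 over all genes. In 4 members the groups did not overlap, against 5.34% of all genes. The rises lay in Cyp2c (5 of 13 tested), Cyp2d (4 of 7) and Cyp2a (3 of 4), with 1 each in Cyp1a, Cyp2b, Cyp2e and Cyp2g, and the falls in Cyp2d (2) and Cyp3a (2 of 4).

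Cyp2d12, a low gene of the Cyp2d cluster, lay at 0.246 to 0.886 CPM (median 0.433) in Control and 2.97 to 24.3 (median 5.89) in PKA KD, a log2 fold change of 4.21 ± 0.42 without overlap (adjusted p = 3.3e-11, edgeR). Cyp2g1, best known from olfactory tissue, rose by 2.79 ± 0.41 from a median of 0.557 to 3.41 CPM, and Cyp2b10 by 2.73 ± 0.55 from 0.299 to 2.41 CPM; these remained low. Among well expressed genes, Cyp2c70 had medians of 122 and 337 CPM (1.46 ± 0.22), Cyp2c54 82.5 and 243 (1.36 ± 0.42) and Cyp2a5 381 and 832 (1.13 ± 0.27). Cyp2a12 lay at 354 to 505 CPM in Control and 651 to 850 in PKA KD without overlap (0.82 ± 0.08, adjusted p = 7.5e-12).

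Cyp2e1 lay at 5425 to 9448 CPM (median 8425) in Control and at 3652 to 17672 (median 11560) in PKA KD, and the groups overlapped widely. Its log2 fold change of 0.52 ± 0.18 (adjusted p = 0.024, edgeR) was lost with limma-voom (0.098) and when male-biased genes entered as a covariate (0.11). Of those 15 genes 6 rose and 1 fell with PKA KD, so the covariate may remove part of the effect of PKA KD. Cyp1a2 rose by 0.69 ± 0.25 and Cyp2d9 by 0.75 ± 0.18; the call of Cyp1a2 was also lost with that covariate (log2 fold change 0.29). The falls were Cyp2d40 (-1.37 ± 0.14, no overlap), Cyp3a59 (-1.33 ± 0.21), Cyp3a25 (-1.0 ± 0.13, no overlap) and Cyp2d26 (-0.37 ± 0.08). Cyp3a11 had medians of 644 and 385 CPM and did not pass (-0.65 ± 0.36, adjusted p = 0.17). Cyp2c29, Cyp2f2, Cyp2j5, Cyp2r1, Cyp2u1, Cyp3a13 and Cyp1a1 did not pass either, with values from -0.16 to 0.18. Of 6 hepatocyte markers 0 were called here. Of 5 tested cholangiocyte markers 2 rose, and the list summed to 37.8 to 311 CPM against 28.1 to 102.5 in Control. Of 18 acute-phase genes 3 fell and 2 rose. Of the endothelial markers 1 of 6 fell, of the T, NK and B cell markers 1 of 4 fell, and of 12 periportal genes 6 fell. Their part in the members' changes was not tested.

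Gnas KD, upstream of the kinase, gave another pattern: 2 members rose and 8 fell, against 6.83% and 8.32% of all genes (15.2% called). In 1 member the groups did not overlap, against 1.5% of all genes. Cyp2a5 lay at 225 to 569 CPM (median 381) in Control and 69.3 to 292 (median 160) in Gnas KD, a log2 fold change of -1.27 ± 0.27 (adjusted p = 0.00073, edgeR). Cyp2a4 fell by 2.24 ± 0.70 from a median of 1.47 to 0.271 CPM; the call was lost with limma-voom (-2.11). Cyp3a59 (-0.94 ± 0.21), Cyp2c29 (-0.81 ± 0.22), Cyp3a25 (-0.76 ± 0.13), Cyp3a13 (-0.46 ± 0.12), Cyp2j9 (-0.43 ± 0.13) and Cyp2j5 (-0.37 ± 0.07) also fell. Cyp2d12 rose by 2.89 ± 0.42 without overlap and Cyp2a12 by 0.26 ± 0.08. Cyp2e1 had -0.01 ± 0.18, Cyp1a2 0.40 ± 0.25 and Cyp3a11 0.17 ± 0.36, none of which passed. Of 6 stellate and fibroblast markers 3 rose in this group, with sums of 294 to 643 CPM against 237 to 439, and 6 of 18 acute-phase genes rose. Of 5 tested cholangiocyte markers 2 rose (sums of 54.5 to 262 CPM against 28.1 to 102.5), 1 of 6 macrophage markers rose and 5 of 12 periportal genes fell. The part of these shifts in the members' changes was not tested.

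Gcgr KD raised 2 members and lowered 0, against 7.23% of all genes called (2.9% as higher, 4.34% as lower), and in 0 members the groups did not overlap, against 0.943% of all genes. These were Cyp2b10, from a median of 0.299 to 2.01 CPM (2.23 ± 0.55, adjusted p = 0.0072, edgeR), and Cyp2c70, from 122 to 196 (0.79 ± 0.22, adjusted p = 0.016). Epac2 KD raised Cyp2a12 (0.30 ± 0.08) and lowered Cyp2r1 (-0.54 ± 0.13), against 4.56% called (1.82% as higher, 2.74% as lower), with 0 members without overlap against 0.575% of all genes. For Gcgr KD there were 4 calls with only the groups compared and 7 with the male-biased covariate, and for Epac2 KD 5 by DESeq2 and 9 with that covariate. Of 12 periportal genes 4 fell and 1 rose with Gcgr KD, and 1 of 6 hepatocyte markers fell with each of Gcgr KD and Epac2 KD; their part was not tested. In the direct comparisons, Gnas KD against Gcgr KD gave 1 higher and 6 lower member (5.83% of all genes called, 2.37% as higher and 3.46% as lower), PKA KD against Gcgr KD 14 and 4 (31.7%, 17.3% and 14.4%), and PKA KD against Gnas KD 20 and 2 (34%, 18.4% and 15.6%). In these 3 comparisons 0, 4 and 3 members did not overlap between groups, against 0.855%, 3.6% and 3.62% of all genes. Cyp2a5 differed between PKA KD, at 437 to 1366 CPM, and Gnas KD, at 69.3 to 292, with no overlap (2.39 ± 0.28, adjusted p = 2.2e-09). Cyp3a11 was lower in PKA KD than in Gcgr KD (-1.30 ± 0.36, adjusted p = 0.0046).

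**Figure D4:**
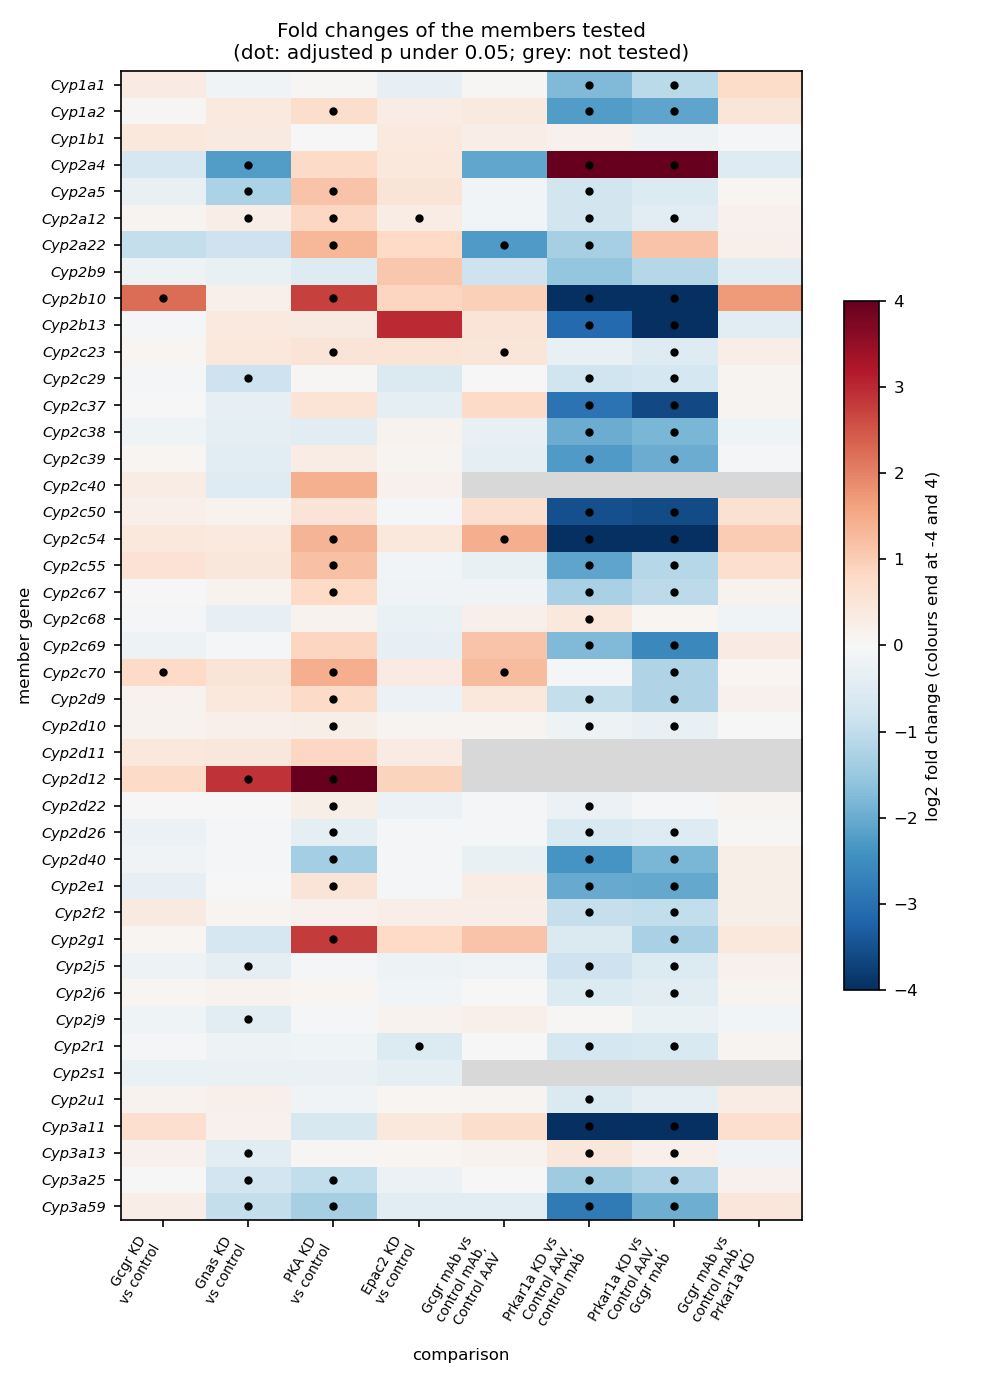
Log2 fold change of each tested member (rows) in 8 comparisons (columns), red for higher and blue for lower, with a dot at adjusted p under 0.05 and grey where not tested. The Prkar1a KD columns are mostly blue with Cyp2a4 red, and the last column, Gcgr mAb within Prkar1a KD, holds no dot.

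The 2 experiments share no libraries, so their calls can be set side by side. Of 39 members tested in both, 30 (76.9%) fell with Prkar1a KD, whatever they did in experiment 1. Of the 15 that rose with PKA KD, 12 fell with Prkar1a KD (80%, and 40% of the 30). Of the 4 that fell with PKA KD, all 4 fell with Prkar1a KD (100%, and 13.3% of the 30). Both shares are to be read against the 76.9%, and neither was tested. Over the 12746 genes tested in both, 27.1% fell with Prkar1a KD, 35.0% of those that rose with PKA KD and 34.4% of those that fell. The 12 were Cyp1a2, Cyp2a5, Cyp2a12, Cyp2a22, Cyp2b10, Cyp2c54, Cyp2c55, Cyp2c67, Cyp2d9, Cyp2d10, Cyp2d22 and Cyp2e1, and the 4 were Cyp2d26, Cyp2d40, Cyp3a25 and Cyp3a59. Of the 8 that fell with Gnas KD, 5 fell with Prkar1a KD (62.5%, and 16.7% of the 30, against 37.5% of all genes that fell with Gnas KD): Cyp2a5, Cyp2c29, Cyp2j5, Cyp3a25 and Cyp3a59. Another 2 of the 8, Cyp2a4 and Cyp3a13, rose with Prkar1a KD (25%, and 66.7% of its 3 rises, against 30.6% and 9.25% of all genes). Among the 39 members 76.9% fell and 7.69% rose with Prkar1a KD. The 62.5% and the 25% are to be read against these rates, and neither was tested. Cyp2c70 rose with both Gcgr KD and Gcgr mAb, 1 of 2 and 1 of 3 calls (50% and 33.3%, against 19.7% and 19.8% of all genes).

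**Figure D5:**
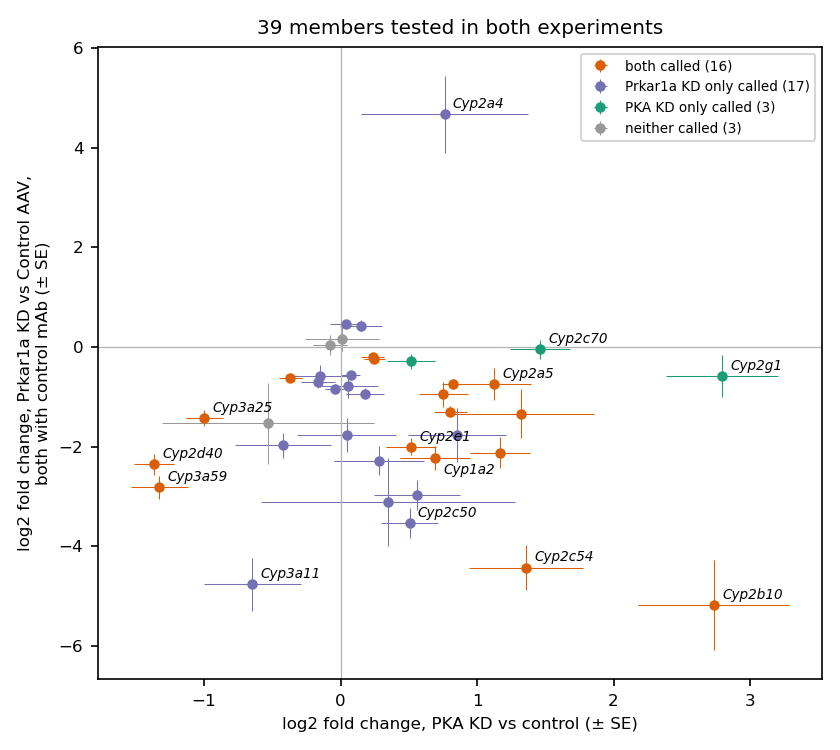
Log2 fold change of the 39 members tested in both experiments, PKA KD against Control (x axis) and Prkar1a KD against Control AAV with control mAb (y axis), with SE bars. Of these, 16 were called in both, 17 with Prkar1a KD alone, 3 with PKA KD alone and 3 in neither; most points lie below 0 on the y axis.

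The partners that serve these enzymes changed as well. Por, the reductase that feeds them electrons, fell with Gnas KD (-0.85 ± 0.18) and rose with Prkar1a KD (0.64 ± 0.21). Cyb5a, cytochrome b5, rose with PKA KD (0.32 ± 0.10) and fell with Prkar1a KD (-0.71 ± 0.09). Its reductase Cyb5r3 fell by 2.61 ± 0.14 with PKA KD, without overlap, and by 0.74 ± 0.08 with Prkar1a KD. Of 6 such partners 5 fell and 1 rose with Prkar1a KD. Alas1, the first enzyme of heme synthesis, fell with Gnas KD (-0.92 ± 0.26), PKA KD (-1.13 ± 0.26) and Epac2 KD (-0.98 ± 0.26), and had 0.04 ± 0.30 with Prkar1a KD. In that last comparison 7 of 12 heme pathway genes fell and 0 rose. Of all genes 56.2% were called there, 26.9% as lower and 29.3% as higher.

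Of 18 tested regulators of xenobiotic genes, 6 rose and 5 fell with Prkar1a KD, and 2 rose and 5 fell with PKA KD, both near the shares of all genes called (56.2% and 32.4%). Nr1i3 (CAR) fell with Prkar1a KD (-0.98 ± 0.17, no overlap) while Nr1i2 (PXR) rose (0.56 ± 0.07), as did Hnf4a (0.77 ± 0.07). With PKA KD, Nr1i2 fell (-0.65 ± 0.07) and Ahr rose (0.55 ± 0.12), and Nr1i3 did not pass (0.14 ± 0.18). Ppara fell with both, by 1.16 ± 0.12 with PKA KD and 1.06 ± 0.12 with Prkar1a KD. Of 16 other genes listed as CAR or PXR targets 8 fell and 2 rose with Prkar1a KD, with Ugt1a1 at -2.75 ± 0.15 and Ces2a at -1.82 ± 0.19, and 3 rose and 3 fell with PKA KD. Of the 4 tested AhR targets 2 fell with Prkar1a KD, Ugt1a6a (-1.21 ± 0.09) and Ugt1a6b (-1.19 ± 0.09).

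Sex-biased genes outside the family moved in both directions. With Prkar1a KD, where 56.2% of all genes were called, 6 of 15 male-biased genes fell and 4 rose, with Hsd3b5 at -4.54 ± 1.28 and Gstp1 at 2.05 ± 0.17, and with PKA KD, where 32.4% of all genes were called, 6 rose and 1 fell. Of 7 tested female-biased genes outside the family 3 fell and 1 rose with Prkar1a KD. Of the 6 tested members listed as female-biased, Cyp2a4 rose and Cyp2b10, Cyp2b13, Cyp2c39 and Cyp2c69 fell, so the rise of Cyp2a4 was not shared by the list.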

How the data were processed

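Liver RNA of 90 mouse samples was measured. The deposited files hold expected counts, estimated counts per Entrez gene and sample, which the authors made before deposit, per the file headers. Per the submitters' processing notes, bcl2fastq 2.17 and FastQC were used with the builds GRCm38 and mm10. Which aligner and counter were used, and how reads matching several paralogs were treated, is not given in the sources used here. Libraries were strand-specific, per the labels' protocols.

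Values with a fractional part (8.54% and 8.41%) were rounded to whole counts, and 0 columns were left out. Of 24475 gene IDs, 24375 matched a symbol. The members and gene lists were chosen with earlier results of these data known. CPM used the total count multiplied by the TMM scaling factor of the library, and RPKM also the exon length in the GENCODE M21 annotation of GRCm38. Total counts were 20813044 to 33709476 (median 25321501) and 8870311 to 19481392 (median 16500588). Each experiment was fitted over all its groups with edgeR 4.0.16 in R 4.3.3 (filterByExpr, TMM, robust quasi-likelihood F test, 45 and 36 residual degrees of freedom, Benjamini-Hochberg adjustment over 13574 and 12847 genes) in 13 comparisons, and tested on simulated data. Calls were made at an adjusted p below 0.05. No group had libraries that differed by less than sampling noise.

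The rule for naming covered, per comparison, up to 5 called members with the largest rises and falls and a mean of at least 1 CPM, and 14 reference members. It also covered up to 3 called genes per direction of each other list, and Por, Cyb5a, Nr1i3, Nr1i2, Ahr, Alas1 and the targets. The text prints only a part of these values, and the choice among them followed no set rule. For Gcgr KD and Epac2 KD, among others, most reference members have no printed value from the main fit. Members named beyond the rule were chosen after their values were seen. Alternatives were DESeq2 1.42.0 and its scaling, limma-voom 3.58.1, no filter, only the groups compared, a replicate block and a covariate for male-biased genes. Leaving out each of 4 libraries was added after the data were seen. The covariate was the mean log level of the male-biased genes, some of which changed with treatment. It can remove part of a treatment effect, so calls lost or gained with it cannot show whether a result is robust.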

Additional observations from a re-analysis of the deposited data

Results flagged for a closer look

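In 36 of 261 pairs of a named member and a group of 10, 1 library lay far from the rest by Dixon's gap test (gap to the next library over the range, 95% critical value). Its chance rate of 5% holds for normally distributed values only. Raw CPM was used, which is skewed for several members, so the 36 cannot be set against that rate. The members of 1 library are also not independent. Values are CPM unless stated.

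Replicate 2 of Control AAV + Gcgr mAb recurred. It held 1.034% of its counts in the 60 genes, the lowest of its group, and was lowest for Cyp2c50 (242.3), Cyp2c54 (72.19), Cyp2d9 (137.7), Cyp2e1 (1925), Cyp2j5 (292.5) and Cyp3a25 (216.2) and highest for Cyp2a4 (21.7). In the same group replicate 3 was highest for Cyp2a12 (576.4) and replicate 1 for Cyp2b13 (32.14).

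Replicate 10 of Epac2 KD was highest in its group for Cyp1a2 (782.9), Cyp2a5 (1364), Cyp2c50 (844.3), Cyp2c54 (265.8), Cyp2d12 (2.225), Cyp2e1 (11450) and Cyp2g1 (2.377). In that group replicate 2 was highest for Cyp2f2 (1587) and replicate 7 for Cyp3a13 (135.9). Replicate 6 of Control was highest for Cyp2a22 (56.74), Cyp2a4 (13.52), Cyp2b10 (1.841) and Cyp3a59 (28.93).

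The remaining far libraries were single. In PKA KD, replicate 5 was lowest for Cyp2c50 (294), replicate 8 highest for Cyp2d12 (24.31) and replicate 3 highest for Cyp2f2 (1432). In Gnas KD, replicate 3 was highest for Cyp2b13 (7.788) and replicate 8 for Cyp2g1 (0.9314), and in Gcgr KD replicate 5 for Cyp2c70 (372.6). In Control AAV + Control mAb, replicate 9 was highest for Cyp2c37 (360.9) and Cyp2g1 (2.006) and replicate 2 for Cyp2r1 (18.9). In Prkar1a KD + Control mAb replicate 9 was highest for Cyp2a22 (41.92). In Prkar1a KD + Gcgr mAb, replicate 7 was lowest for Cyp2c70 (42.97) and Cyp2j5 (268.8), replicate 8 highest for Cyp2g1 (1.5) and replicate 2 for Cyp2u1 (30.63).

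The effect of Gcgr mAb differed between Control AAV and Prkar1a KD by the interaction test for Cyp2c70 (-1.169) and Cyp2a22 (2.474). No explanation of these values was tested.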

How the results depend on the processing

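Of 1278 values of single members under the alternatives, 1206 kept their direction and their side of the threshold, 22 lost the call, 16 gained it and 34 changed sign; those that changed sign were called neither before nor after. With the replicate number as a block, the members called were 10 for Gnas KD, 20 for PKA KD and 32 for Prkar1a KD with control mAb, against 10, 20 and 33 without it, and 1 against 2 for the interaction. Whether the numbers pair the samples was not settled. Deviations were correlated (r above 0.1) in 46 of 100 and 23 of 60 same-numbered pairs, a share not counted for the other pairs. The median r of same-numbered pairs was 0.062 against -0.0057 for the others in experiment 1, and 0.0023 against -0.017 in experiment 2. Best correlation with their own number was found for 7 of 50 and 4 of 40 libraries. With 10 numbers to match, about 1 in 10 libraries would do so by chance. The block also turned Cyp3a25 (-0.015) and Cyp2c29 (-0.014) with Gcgr mAb and Cyp1a2 with Gcgr KD (-0.033).

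Counts of called members moved by more than 1.5 times in these cases. For Gcgr KD they were 4 with only the groups compared and 7 with the covariate for male-biased genes. For Epac2 KD they were 5 by DESeq2 and 9 with the covariate. For Gcgr mAb in Control AAV they were 8 with the covariate and 7 without replicate 2 of that group. For the interaction they were 1 without the filter. Causes were not tested.

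Signs changed as follows (log2). By DESeq2, DESeq2 scaling and no filter, Cyp2r1 with Gcgr mAb was 0.0010, 0.00074 and 0.00155. By limma-voom, values with Gcgr mAb were -0.034 for Cyp3a25, -0.034 for Cyp1a1 and -0.031 for Cyp2c29, interactions -0.50 for Cyp2b10 and 0.028 for Cyp2e1, Cyp1a2 with Gcgr KD -0.048, and Cyp1a1 -0.20 with PKA KD and -0.021 against Gnas KD. With the covariate, Gcgr mAb in Control AAV gave -0.10 for Cyp2d9, -0.16 for Cyp2c29, 0.35 for Cyp2a5 and -0.38 for Cyp2u1, and in Prkar1a KD -0.080 for Cyp2d9. It gave 0.12 for Cyp2u1 for Prkar1a KD with Gcgr mAb. Interactions were 0.024 for Cyp2e1, -0.089 for Cyp2a5, -0.043 for Cyp2b10 and 0.021 for Cyp2d9. Epac2 KD gave -0.016 for Cyp3a13 and -0.055 for Cyp2u1, PKA KD -0.069 for Cyp2c29 and -0.094 for Cyp3a13. Gnas KD gave -0.11 for Cyp2u1, -0.067 for Cyp2f2 and -0.055 for Cyp1a2, and Gcgr KD -0.021 for Cyp2u1, -0.015 for Cyp2d9 and -0.24 for Cyp1a2.

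Depth limits the low members: 43 and 39 of 60 passed the filter, and Cyp2b10 had 110 and 2 counts in all over the control and Prkar1a KD libraries. How reads of near copies were counted is not given in the sources used here.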

Other observations

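Within the 10 PKA KD libraries, the level of Prkaca (7.34 to 23.4 CPM) was compared with 14 reference members on the log scale. Libraries with more Prkaca left had less Cyp2d9 (Pearson r = -0.94, Spearman rho = -0.85), Cyp2u1 (-0.93 and -0.84) and Cyp2e1 (-0.90 and -0.92). The permutation p of r, adjusted over the 14 members, was 0.0022, 0.0022 and 0.0029, and that of rho 0.017, 0.017 and 0.0078. Without the 2 libraries farthest from the median Prkaca, replicates 3 and 5, r was -0.78 for Cyp2d9, -0.74 for Cyp2u1 and -0.77 for Cyp2e1. The same step turned Cyp2a5 from -0.41 to 0.51 and Cyp2c29 from -0.34 to 0.43, so their values rest on those libraries, and moved Cyp2b10 from 0.49 to 0.89. Replicates 3 and 5 are also the 2 PKA KD libraries least like the rest of their group. Cyp2f2 (r = -0.066) and Cyp3a11 (r = 0.58, adjusted p = 0.15) did not follow, and the other members had adjusted permutation p from 0.060. Against Control, Cyp2d9 and Cyp2e1 were called as higher with PKA KD in the main fit, while Cyp2u1 was not called (log2 fold change -0.15). Cyp2u1 and Prkaca fall in 1 set of libraries with shared depth and composition, and no cause was tested.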
